A study of Oryza sativa with 16 samples.

Results

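The JASMONATE ZIM-DOMAIN (JAZ) repressors of rice were followed in the flag leaf through 10 loci. They were taken by their identifiers from the 55801 loci of the count table and not by their measured values. Earlier results of these data were, however, known when they were chosen. All 10 passed the filter of at least 10 counts in total and were among the 28283 loci tested. JAZ proteins belong to the TIFY family and hold jasmonate signalling in check by binding transcription factors such as MYC2 and recruiting co-repressors, in Arabidopsis through the adaptor NINJA. When bioactive jasmonate accumulates, it joins JAZ proteins to the F-box receptor COI1, the repressors are degraded by the proteasome, and the freed factors start transcription. Many JAZ genes are themselves among the genes that jasmonate switches on, so that the repressors are replaced after a pulse of hormone, and jasmonate is known for its roles in wounding, senescence, flower development and water-stress responses of grasses.

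Flag-leaf tissue was sampled from potted plants of DTY-IL, a single drought-tolerant introgression line with fragments of the donor N22 in a Swarna background, and of Swarna, the drought-susceptible indica variety. Plants under reproductive-stage drought stress (RDS) were held at 75% of field capacity for 9 days and then at 50% for 3 days, and the tissue was taken on day 12. Control plants were kept well watered. The 4 groups (DTY-IL under RDS, DTY-IL control, Swarna under RDS, Swarna control) had 4 biological replicates each, which gave 16 libraries, with RDS libraries labelled as drought in the plots. Reads of both genotypes had been mapped to transcripts of a japonica reference, so alleles that differ from it could be undercounted, which was not tested.

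Library totals ranged from 14250527 to 19367077 counts. Levels are given as CPM, which are counts scaled with TMM factors to libraries of one size, and fold changes are from the edgeR quasi-likelihood fit. A locus was called where its Benjamini-Hochberg adjusted p was at most 0.05 and its absolute log2 fold change at least 1. As a check of the tissue, marker loci were summed on another scale, CPM by library total alone without TMM factors. On it the 6 leaf photosynthesis loci summed to 18971–33067 in DTY-IL under RDS and 80475–89777 in DTY-IL controls. In Swarna they summed to 11635–17812 under RDS and 86084–107422 in controls. The 7 floral organ loci summed to between 13.7 and 31.7 in every library on the same scale, and 5 of them had enough counts to be tested. Among these 5, LOC_Os03g11614 averaged, with TMM scaling again, 0.0971 CPM under RDS and 1.31 CPM in controls of DTY-IL. In Swarna it averaged 0.828 CPM under RDS and 7.29 CPM in controls. It was called lower under RDS in both genotypes, and lower in DTY-IL than in Swarna in both conditions. None of the other 4 was called in these contrasts. Of the photosynthesis loci 5 of 6 were called lower under RDS in DTY-IL, against 11.5% of all tested loci. In Swarna 6 of 6 were called lower, against 17.3%. Their part in the changes of the JAZ loci was not tested. In leaf RNA, fewer cells of a type and less RNA per cell cannot be told apart.

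The JAZ loci did not move as a block under RDS. In both genotypes LOC_Os09g23660 and LOC_Os07g42370 fell several-fold, while LOC_Os03g08320, a locus with few counts, rose. LOC_Os03g28940 rose in DTY-IL, and in Swarna LOC_Os03g08310 was called lower on few counts. LOC_Os03g08330 was also called lower in Swarna, but 340 of its 419 control counts there came from Swarna control 4. Without that library its log2 fold change was -0.41. In DTY-IL 4 of the 10 loci were called, 2 higher and 2 lower, against 23.5% of all tested loci (12.0% higher and 11.5% lower). In Swarna 5 of the 10 were called, 1 higher and 4 lower, against 32.6% of all tested loci (15.2% higher and 17.3% lower). The libraries of the RDS and control groups did not overlap for 6 of 10 loci in each genotype, against 35.0% of all tested loci in DTY-IL and 46.8% in Swarna. The median log2 fold change of the 10 loci was -0.12 in DTY-IL and -0.41 in Swarna, beside medians of 0.03 and 0.06 over all tested loci.

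**Figure D1:**
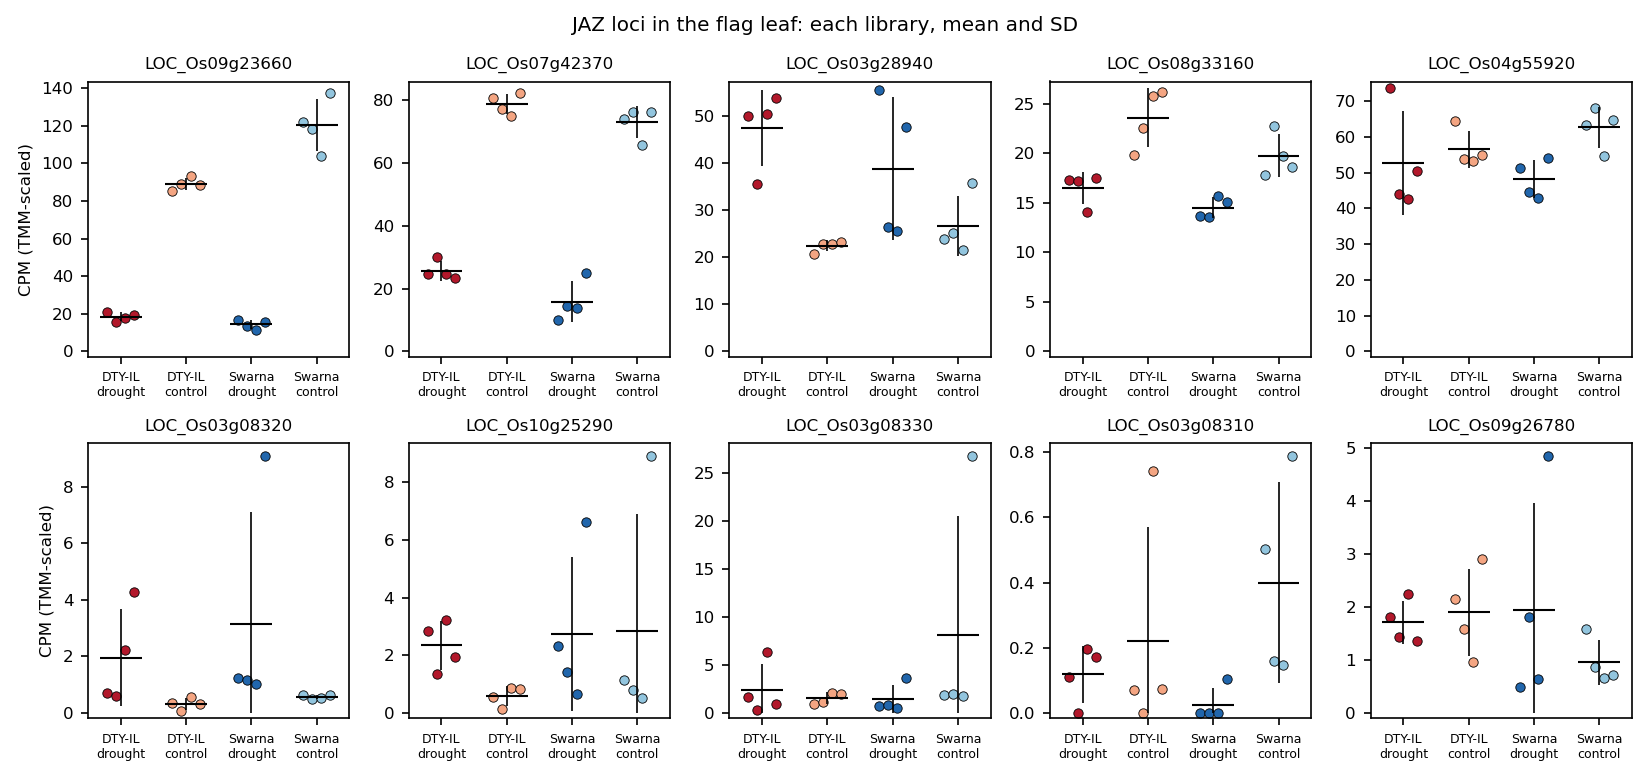
CPM (TMM-scaled) of each of the 10 JAZ loci, one panel per locus with its own axis from 0, for DTY-IL under RDS, DTY-IL control, Swarna under RDS and Swarna control; each point is a library, the horizontal line the mean and the vertical line the SD (n = 4). LOC_Os09g23660 and LOC_Os07g42370 lie at 9.89–30.2 CPM in all RDS libraries and at 65.8–137 CPM in all control libraries, whereas in the lower row single libraries stand far above their group.

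LOC_Os09g23660, on chromosome 9 by its identifier like the chromosomes given below, fell under RDS in both genotypes. Its 4 RDS libraries of DTY-IL had 21.1, 15.7, 17.6 and 19.4 CPM, and its controls had 85.3, 88.9, 93.4 and 88.2 CPM. In Swarna the RDS libraries had 16.8, 13.4, 11.5 and 15.5 CPM and the controls 122, 118, 104 and 137 CPM. Every control library of either genotype was thus at least several times above every RDS library. The locus averaged 18.5 ± 2.31 CPM under RDS and 89.0 ± 3.36 CPM in controls of DTY-IL (SD, n = 4 each), a log2 fold change of -2.27 ± 0.14 (SE, edgeR adjusted p = 1.4e-09). In Swarna the means were 14.3 ± 2.33 CPM under RDS and 120 ± 13.7 CPM in controls, a log2 fold change of -3.07 ± 0.14 (edgeR adjusted p = 3.9e-11). Both calls stood in each of the 27 alternative fits. Of all tested loci, 5.92% had a lower log2 fold change in DTY-IL and 6.08% in Swarna.

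Of the 10 loci this was also the one whose response to RDS differed between the genotypes by adjusted p. The difference of the log2 fold changes (DTY-IL minus Swarna) was 0.80 ± 0.19 (SE, edgeR adjusted p = 0.0184), the fall being smaller in DTY-IL. Under control conditions DTY-IL was lower than Swarna by a log2 fold change of -0.43 ± 0.13 (edgeR adjusted p = 0.0426) with no overlap of the libraries. Under RDS the log2 fold change between DTY-IL and Swarna was 0.37 ± 0.13 (edgeR adjusted p = 0.091) and the libraries overlapped. None of these reached a fold change of at least 1 on the log2 scale. With scaling by library size alone the difference of responses was 0.54 with an adjusted p of 0.0642, while over all 26 alternatives that p ranged between 0.00108 and 0.0642.

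LOC_Os07g42370, on chromosome 7, also fell under RDS in both genotypes. In DTY-IL it had 24.6, 30.2, 24.6 and 23.3 CPM under RDS, against 80.8, 77.3, 75.1 and 82.4 CPM in controls. The Swarna libraries had 9.89, 14.4, 13.8 and 25.1 CPM under RDS, against 74.1, 76.3, 65.8 and 76.2 CPM in controls. RDS and control libraries lay well apart in both genotypes, and within the Swarna RDS group library 4 was well above the others. The log2 fold change was -1.62 ± 0.20 in DTY-IL (edgeR adjusted p = 4.1e-06) and -2.21 ± 0.20 in Swarna (edgeR adjusted p = 7.5e-08), and both calls stood in all 27 alternatives.

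Between genotypes, LOC_Os07g42370 averaged 25.7 ± 3.10 CPM in DTY-IL and 15.8 ± 6.51 CPM in Swarna under RDS (SD, n = 4 each). That log2 fold change was 0.70 ± 0.20 (edgeR adjusted p = 0.0282), below the fold-change threshold, and Swarna RDS library 4 overlapped the DTY-IL range. Without that library it was 1.04 (edgeR adjusted p = 0.000252) and the locus was called. The difference of the responses was 0.59 ± 0.27 (edgeR adjusted p = 0.22), and without the same library 0.90 (edgeR adjusted p = 0.0156). In controls the genotypes had 78.9 ± 3.29 CPM in DTY-IL and 73.1 ± 4.98 CPM in Swarna, with overlapping libraries (log2 fold change 0.11, edgeR adjusted p = 0.78).

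LOC_Os03g28940, on chromosome 3, moved in the opposite direction in DTY-IL. There it had 50.1, 35.7, 50.4 and 53.8 CPM under RDS, against 20.8, 22.9, 22.8 and 23.3 CPM in controls. In Swarna it had 55.6, 26.4, 25.6 and 47.7 CPM under RDS, against 23.9, 25.2, 21.7 and 35.9 CPM in controls. All DTY-IL libraries under RDS exceeded their controls, whereas in Swarna libraries 1 and 4 were high under RDS, 2 and 3 lay within the control range, and control 4 stood above the other controls. The log2 fold change was 1.08 ± 0.23 in DTY-IL (edgeR adjusted p = 0.0010), called in 26 of 27 alternatives. In Swarna it was 0.54 ± 0.23 (edgeR adjusted p = 0.055), which ranged between 0.28 without Swarna RDS library 1 and 1.20 with library size alone. The difference between the genotypes' responses was 0.54 ± 0.32 (edgeR adjusted p = 0.36), so a difference was not shown.

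**Figure D2:**
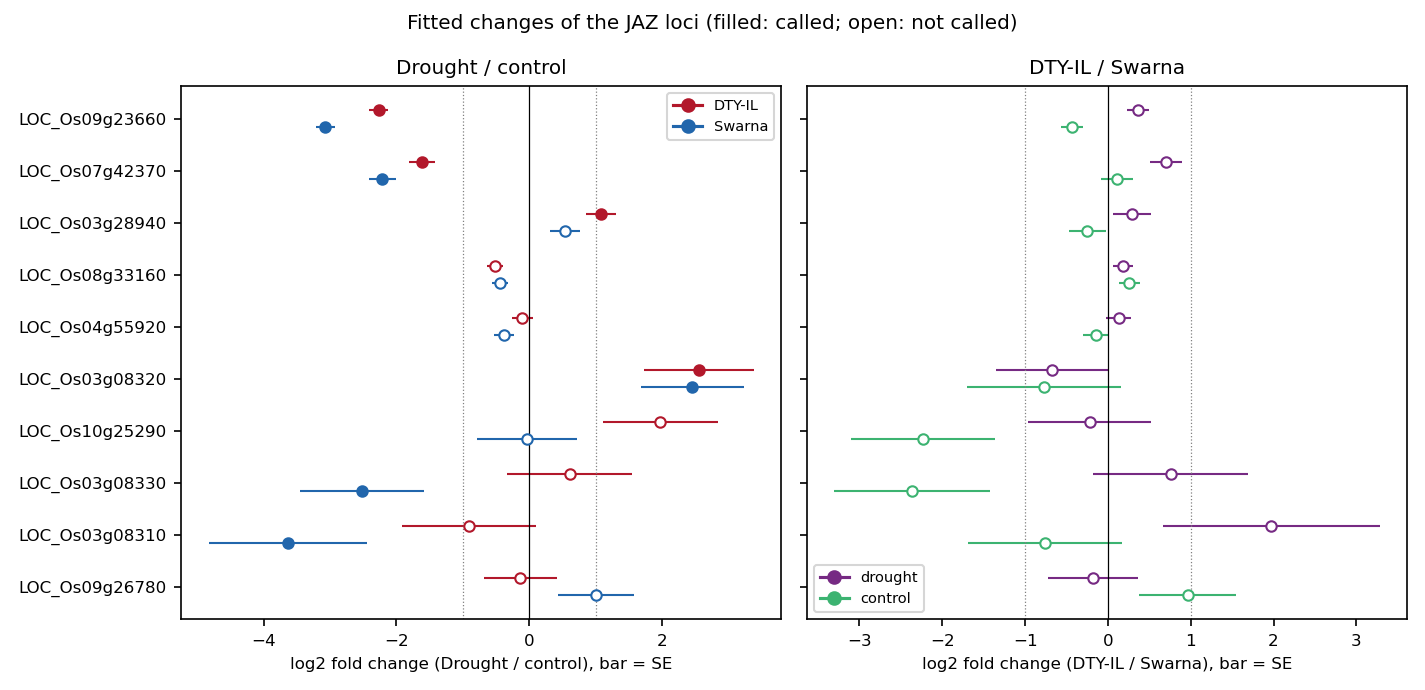
Fitted log2 fold changes of the 10 JAZ loci with their SE (bars), RDS over control in DTY-IL (red) and Swarna (blue) on the left, and DTY-IL over Swarna under RDS (purple) and in controls (green) on the right; filled points were called, open points were not, and dotted lines mark a log2 fold change of 1 in either direction. The 5 upper loci have an SE of at most 0.23, the 5 lower ones wider bars, and no point on the right is filled.

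The remaining loci with ample counts changed less. LOC_Os08g33160, on chromosome 8, averaged 16.5 ± 1.62 CPM under RDS and 23.6 ± 2.98 CPM in controls of DTY-IL, and 14.5 ± 1.03 CPM under RDS and 19.8 ± 2.17 CPM in controls of Swarna (SD, n = 4 each). The libraries of the conditions did not overlap in either genotype, and the log2 fold changes were -0.52 ± 0.12 (edgeR adjusted p = 0.0029) in DTY-IL and -0.44 ± 0.13 (edgeR adjusted p = 0.0068) in Swarna, short of the fold-change threshold. LOC_Os04g55920, on chromosome 4, averaged 52.7 ± 14.4 CPM under RDS and 56.6 ± 5.17 CPM in controls of DTY-IL, where RDS library 1 alone reached 73.8 CPM. In Swarna it averaged 48.2 ± 5.36 CPM under RDS and 62.7 ± 5.72 CPM in controls without overlap of the libraries. Its log2 fold changes, -0.10 ± 0.16 in DTY-IL (edgeR adjusted p = 0.63) and -0.38 ± 0.16 in Swarna (edgeR adjusted p = 0.052), did not pass the test.

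These smaller values depended on the scaling. With library size alone, the median log2 fold change over all tested loci was 0.43 instead of 0.03 in DTY-IL and 0.70 instead of 0.06 in Swarna, and LOC_Os04g55920 turned positive in both genotypes (0.29 in DTY-IL and 0.28 in Swarna), as did LOC_Os08g33160 in Swarna (0.21), while it stayed at -0.12 in DTY-IL. Relative to that shift, all of these values remained below the median of the tested loci.

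The other 5 loci were sparse, with 48 counts (LOC_Os03g08310) to 810 counts (LOC_Os03g08330) over all 16 libraries. LOC_Os03g08310, LOC_Os03g08320 and LOC_Os03g08330 carry consecutive identifiers on chromosome 3 and are neighbours. Reads could have been shared out between similar copies by the authors' estimate of counts, which was not tested. In DTY-IL only LOC_Os03g08320 of these was called, as higher. In Swarna LOC_Os03g08320 was called higher, and LOC_Os03g08310 and LOC_Os03g08330 lower. Each of these Swarna calls was lost when a certain single library was left out. LOC_Os03g08320 had 13, 10, 46 and 75 counts under RDS and 5, 1, 10 and 4 counts in controls of DTY-IL. In Swarna it had 26, 24, 19 and 176 counts under RDS and 10, 6, 7 and 8 counts in controls. In CPM no control library reached an RDS library of its genotype, and the highest values came from RDS library 4 in each genotype, with 4.27 CPM in DTY-IL and 9.08 CPM in Swarna.

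The log2 fold change of LOC_Os03g08320 was 2.56 ± 0.83 in DTY-IL (edgeR adjusted p = 0.020) and 2.46 ± 0.77 in Swarna (edgeR adjusted p = 0.013). The Swarna call was lost without RDS library 4, at 0.97 (edgeR adjusted p = 0.212). In DTY-IL it was lost without RDS library 4, at 1.85 (edgeR adjusted p = 0.0935), and without control library 2, at 2.23 (edgeR adjusted p = 0.0607). limma-voom called the locus in neither genotype (adjusted p = 0.0589 in DTY-IL and 0.0958 in Swarna).

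LOC_Os03g08330 had 31, 6, 131 and 17 counts under RDS and 14, 17, 37 and 27 counts in controls of DTY-IL. In Swarna it had 15, 16, 10 and 70 counts under RDS and 30, 25, 24 and 340 counts in controls. A single library was far above the others in 3 of these groups, DTY-IL RDS 3, Swarna RDS 4 and Swarna control 4, and RDS and control libraries overlapped in both genotypes. The log2 fold change was 0.61 ± 0.94 in DTY-IL (edgeR adjusted p = 0.64) and -2.51 ± 0.93 in Swarna (edgeR adjusted p = 0.033). Without Swarna control 4 the Swarna change was -0.41 (edgeR adjusted p = 0.692) and without Swarna RDS library 4 it was -3.61 (edgeR adjusted p = 0.0109), and leaving out Swarna RDS library 1, 2 or 3 also ended the call, at adjusted p values of 0.0798, 0.0798 and 0.0813. The call was also lost with library size alone (edgeR adjusted p = 0.0890) and in limma-voom (adjusted p = 0.112), and DESeq2 gave no adjusted p.

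LOC_Os03g08310 was barely detected, with 2, 0, 4 and 3 counts under RDS and 1, 0, 13 and 1 counts in controls of DTY-IL, and 0, 0, 0 and 2 counts under RDS and 8, 2, 2 and 10 counts in controls of Swarna. Its call in Swarna (log2 fold change -3.64 ± 1.19, edgeR adjusted p = 0.017) rested on 2 counts under RDS and 22 in controls. The depth-adjusted ratio of control over RDS was 15.9, with a 95% interval of 3.92 to 140 that covers counting error only, and without Swarna control 4 the edgeR adjusted p was 0.0583. The filterByExpr filter of edgeR removed this locus. In DTY-IL the log2 fold change was -0.91 (edgeR adjusted p = 0.51).

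LOC_Os10g25290, on chromosome 10, had 52, 23, 66 and 34 counts under RDS and 8, 2, 15 and 11 counts in controls of DTY-IL. In Swarna it had 48, 29, 12 and 128 counts under RDS and 18, 10, 7 and 113 counts in controls. The DTY-IL libraries did not overlap, yet the log2 fold change of 1.97 ± 0.86 did not pass the test (edgeR adjusted p = 0.076), and it was called in 6 of 27 alternatives. In Swarna library 4 was the highest in both conditions and the log2 fold change was -0.04 ± 0.75 (edgeR adjusted p = 0.98). Without Swarna control 4 it was 1.73 (edgeR adjusted p = 0.0419), and the locus was then called higher. LOC_Os09g26780, on chromosome 9, averaged 1.71 CPM under RDS and 1.90 CPM in controls of DTY-IL and 1.95 CPM under RDS and 0.954 CPM in controls of Swarna, where RDS library 4 alone had 4.85 CPM, and it was called in neither genotype.

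**Figure D3:**
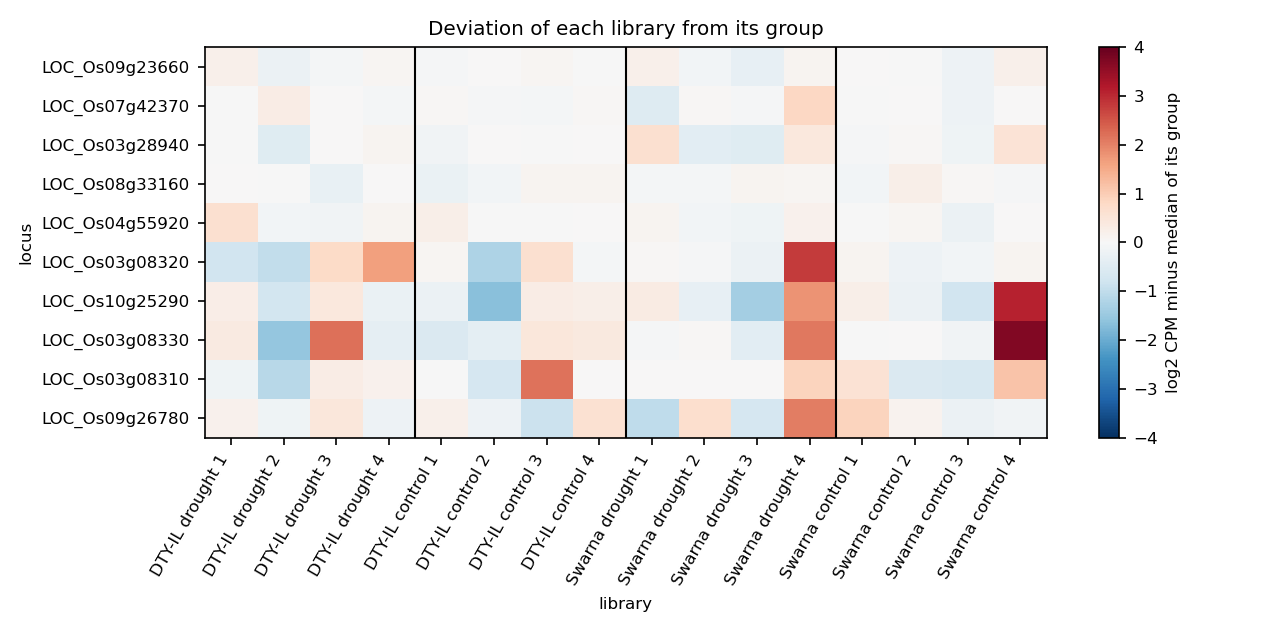
Difference of each library from the median of its own group in log2 CPM (prior count 2), for the 10 JAZ loci (rows) in the 16 libraries (columns; black lines part the groups); red is above and blue below the group median. The upper 5 rows are pale, whereas among the lower 5 Swarna drought 4 is the highest library of its group in all 5 and Swarna control 4 in 4 of 5.

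High values of the 5 sparse loci often fell in the same few libraries. Swarna RDS library 4 was the highest of its group in all 5 and Swarna control 4 in 4 of 5, as were DTY-IL RDS library 3 and DTY-IL control 3 in theirs. Some of these ranks were near ties: LOC_Os03g08320 had 0.631 CPM in Swarna control 4 and 0.630 CPM in Swarna control 1. DTY-IL control 3 did not stand out in the sum over the sparse loci, with 5.24 CPM against 6.10 CPM in DTY-IL control 4. Summed over these loci, Swarna RDS library 4 had 24.3 CPM, against 2.83–5.18 CPM in the other Swarna RDS libraries. Swarna control 4 had 37.9 CPM, against 3.59–5.74 CPM in the other Swarna controls, and DTY-IL RDS library 3 had 14.3 CPM, against 3.74–8.71 CPM in the rest of its group. The labels give no batch or date for any library. Without these 3 libraries together, a choice made after seeing the data, 5 JAZ loci were called in DTY-IL, 3 higher and 2 lower, and 4 in Swarna, all lower. The share of all tested loci called in that fit is not given here, so these counts cannot be set against it.

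Calls between the genotypes were rare over all tested loci, so few or none among 10 loci does not set the JAZ loci apart. Under RDS none of the 10 was called between DTY-IL and Swarna, against 6.59% of all tested loci, and 2 had an unadjusted p under 0.05. DESeq2 and limma-voom also called 0. Under control conditions none was called by edgeR, against 5.11% of all tested loci, while 3 had an unadjusted p under 0.05. DESeq2 called 1 there, LOC_Os10g25290 (log2 fold change -2.29, DESeq2 adjusted p = 0.0396), and limma-voom called 0. In edgeR that value was -2.23 (adjusted p = 0.117), and without Swarna control 4, which had 113 of the 148 counts of its group, it was -0.47 (edgeR adjusted p = 0.762). None of the 10 was called for a difference in the response to RDS, against 4.91% of all tested loci. In that comparison 3 had an unadjusted p under 0.05, and DESeq2 and limma-voom called 0. By adjusted p alone LOC_Os09g23660 passed, against 6.42% of all tested loci. The intervals were narrow for the abundant loci and wide for the sparse ones. The approximate 95% interval (from the SE of the fold change) of DTY-IL over Swarna under RDS ran over log2 values between -0.15 and 0.73 for LOC_Os03g28940. For LOC_Os03g08320 it ran between -1.99 and 0.65.

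**Figure D4:**
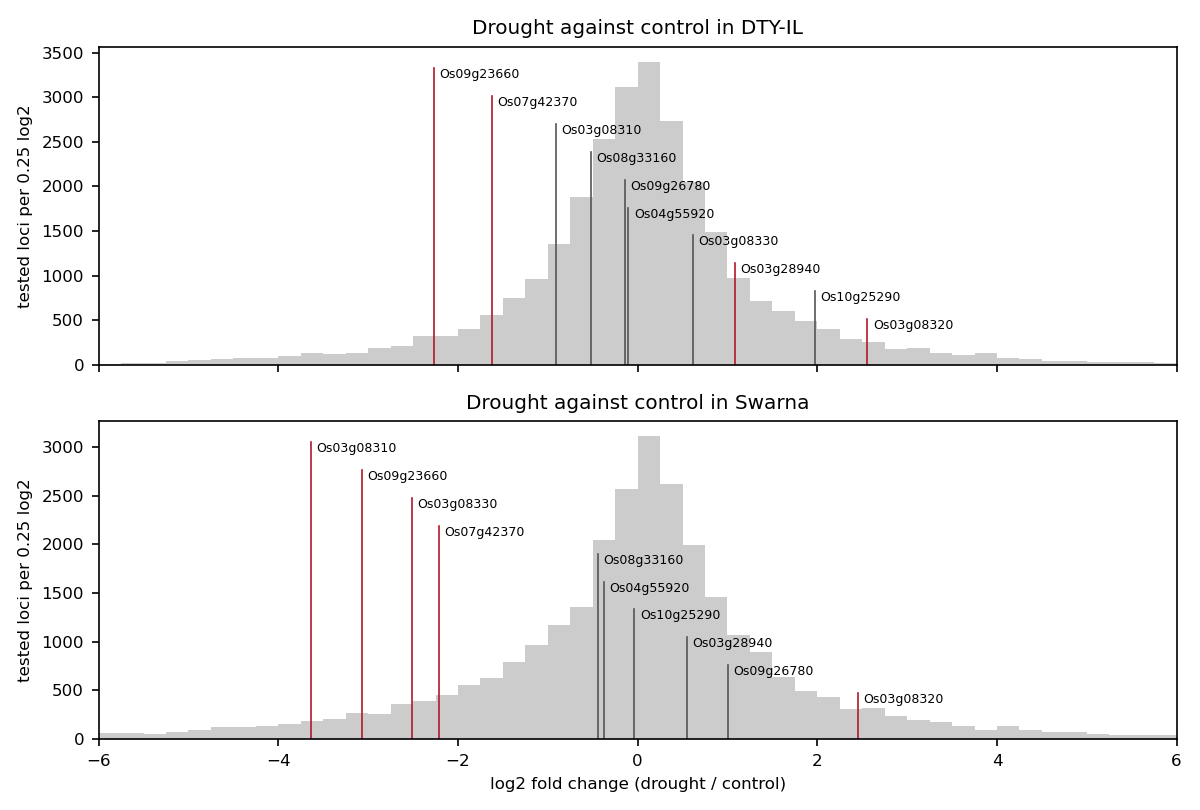
Histogram of the log2 fold changes (RDS over control, bins of 0.25) of all tested loci in DTY-IL (upper panel) and Swarna (lower panel) with vertical lines at the 10 JAZ loci, red where called; values beyond 6 in either direction are not drawn. LOC_Os09g23660 lies at -2.27 in DTY-IL and -3.07 in Swarna, and LOC_Os03g08320 at 2.56 and 2.46 on the other side of the distribution.

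The makeup of the summed JAZ transcripts differed between the conditions. The summed level of the 10 loci was 169 ± 19.7 CPM under RDS and 275 ± 5.06 CPM in controls of DTY-IL, and 141 ± 32.5 CPM under RDS and 315 ± 41.7 CPM in controls of Swarna (SD, n = 4 each). LOC_Os09g23660 and LOC_Os07g42370 together made up 26.3% of that sum under RDS and 61.0% in controls of DTY-IL, and 21.5% under RDS and 61.5% in controls of Swarna. LOC_Os03g28940 made up 28.0% under RDS and 8.16% in controls of DTY-IL, and 27.0% under RDS and 8.38% in controls of Swarna, where its level was not called. The share of LOC_Os04g55920, whose level was called in neither genotype, was likewise 30.8% under RDS and 20.6% in controls of DTY-IL, and 34.9% under RDS and 20.03% in controls of Swarna. These sums are not corrected for transcript length, so they compare groups and not loci.

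The jasmonate pathway around the repressors was described from lists made from general knowledge of rice, since the files pair no locus with a name. Of 10 loci listed for jasmonate synthesis and conjugation, 8 were tested. In DTY-IL 0 of them were called higher and 3 lower, against 12.0% and 11.5% of all tested loci, and in Swarna 1 was called higher and 3 lower, against 15.2% and 17.3%. LOC_Os08g39850 fell in both genotypes, with 1.97, 7.78, 1.22 and 1.08 CPM under RDS and 10.1, 23.3, 10.8 and 13.5 CPM in controls of DTY-IL (log2 fold change -2.27 ± 0.58, edgeR adjusted p = 0.0046). In Swarna it had 1.25, 0.44, 3.41 and 1.50 CPM under RDS and 6.74, 21.6, 12.3 and 12.1 CPM in controls (log2 fold change -3.00 ± 0.61, edgeR adjusted p = 0.00050). No RDS library reached a control library of its genotype, and both calls stood in all 27 alternatives, although single libraries moved the size of the change. Without DTY-IL RDS library 2 it was -3.34 in DTY-IL, and in Swarna it was -3.66 without Swarna RDS library 3 and -2.34 with library size alone. LOC_Os12g37260 fell in DTY-IL on 1, 2, 0 and 3 counts under RDS and 8, 26, 3 and 1088 counts in controls (edgeR adjusted p = 0.0085), and without DTY-IL control 4 the edgeR adjusted p was 0.201. LOC_Os02g12680 was called higher in Swarna on 31, 2, 4 and 7 counts under RDS and none in any control library (edgeR adjusted p = 0.038), a call lost without Swarna RDS library 1 (edgeR adjusted p = 0.112) and without any single Swarna control (edgeR adjusted p = 0.0654 to 0.0711) or Swarna RDS library 4 (edgeR adjusted p = 0.0520).

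Of 10 loci listed for jasmonate perception and JAZ partners, all were tested. In DTY-IL none was called by edgeR, against 12.0% of all tested loci called higher and 11.5% lower. DESeq2 and limma-voom also called none there, and 2 had an unadjusted p under 0.05 in edgeR. In Swarna 0 were called higher and 3 lower, against 15.2% and 17.3% of all tested loci. LOC_Os11g25920 had 1.30, 2.20, 2.72 and 1.14 CPM under RDS and 4.85, 4.11, 3.81 and 3.87 CPM in controls of Swarna, with no overlap (log2 fold change -1.18 ± 0.32, edgeR adjusted p = 0.0051), and with library size alone it was not called (-0.52, edgeR adjusted p = 0.174). LOC_Os03g53020 had 6.38, 3.47, 3.84 and 4.39 CPM under RDS and 6.43, 10.4, 7.69 and 34.0 CPM in controls of Swarna, where control 4 again stood apart (log2 fold change -1.69 ± 0.41, edgeR adjusted p = 0.0024). Without Swarna control 4 its log2 fold change was -0.85 and only 1 locus of the list was called in Swarna. Of 5 further loci listed as JAZ genes, 2 had enough counts to be tested. One of them, LOC_Os10g25230, was called higher in DTY-IL (log2 fold change 4.37, edgeR adjusted p = 0.044) and had 3.90 CPM in DTY-IL RDS library 3 and 4.89 CPM in Swarna control 4, against at most 0.342 CPM in the other libraries, so that the groups overlapped. Without DTY-IL RDS library 3 the log2 fold change was 2.13 (edgeR adjusted p = 0.350), and the call stood in 14 of 25 alternatives. Its response to RDS was also called different between the genotypes (7.36, DTY-IL minus Swarna, edgeR adjusted p = 0.0489), a call that stood in 7 of 24 alternatives, and without Swarna control 4 the difference was 3.35 (edgeR adjusted p = 0.463).

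The loci with the most similar profiles over the 16 libraries were sought among 15967 loci with a mean of at least 50 counts. LOC_Os10g26670 was nearest to LOC_Os09g23660 (Pearson r of log2 CPM 0.991), and LOC_Os06g01934 to LOC_Os07g42370 (r = 0.990). The nearest to LOC_Os08g33160 was LOC_Os04g53612 (r = 0.921), to LOC_Os03g28940 LOC_Os03g09170 (r = 0.919), to LOC_Os04g55920 LOC_Os11g37730 (r = 0.914) and to LOC_Os03g08330 LOC_Os03g55540 (r = 0.808). These coefficients describe libraries that share the same 4 groups, and are given without a test. LOC_Os03g08330 was just above the limit, with a mean of 50.6 counts, and Swarna control 4 held 340 of its 810 counts. How far its coefficient rests on that library was not tested.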

How the data were processed

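Flag-leaf RNA-seq of DTY-IL and Swarna under drought and control conditions was analysed, with groups and replicate numbers taken from the sample titles. The authors trimmed reads with Trimmomatic, quantified transcripts of IRGSP-1.0 with the RGAP 7 annotation in Salmon 0.7.2 with correction for sequence and GC bias, and summed them to loci. The deposited table holds the expected count (estimated count) of each locus in whole numbers and without normalization. A scaling of the counts for transcript length is not given in the sources used here. The authors' 4 contrast tables hold DESeq2 log2 fold changes with their errors and p-values and were not used. No per-sample column was left out.

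Loci with at least 10 counts in total were fitted by quasi-likelihood in edgeR 4.0.16 (R 4.3.3) with TMM factors, all 4 groups together, with two-sided tests. The thresholds were those of the study's definition of a differentially expressed gene. Errors of fold changes are an approximate SE, the absolute log2 fold change divided by the square root of the F statistic of the edgeR test. Intervals from counts cover counting error only. Library totals and the number of replicates limit the precision, and a level of 3 counts was taken as the floor in a library. No library was a copy of another: within groups, the lowest chi-square per locus between any pair of libraries was 12.4.

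As alternatives, calls were made in DESeq2 1.42.0 and with voom in limma 3.58.1, with a replicate block, on pairs of groups, by adjusted p alone, under 2 other scalings (RLE factors or library size alone) and under 2 other filters (filterByExpr or none), and after removal of each library in turn or of the 20 most abundant loci. A fit without 3 libraries that stood high in the sparse loci, and all fits of single loci of the jasmonate lists, were added after seeing the data. The 10 members and the lists were chosen with earlier results of these data known. All members are named. From each other list the text names at most 2 loci that rose and 2 that fell in a drought contrast, by the size of the fitted change among called loci without overlap of the libraries. LOC_Os10g25230, LOC_Os03g11614 and the other loci named beside them were chosen after their values were seen. The files, the paper and the reference table pair no locus identifier with a gene name, and no sequences or coordinates were used. Tables were made with pandas 2.3.3, SciPy 1.17.1 and NumPy 2.4.6 in Python 3.11.15, and figures with matplotlib 3.10.9.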

Additional observations from a re-analysis of the deposited data

Results flagged for a closer look

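In each group of 4 libraries, the highest or lowest library was singled out where its gap to the next one was a large share of the group's range (above Dixon's 95% critical value). For normally distributed values chance alone does this in about 1 in 20 groups, a rate that need not hold for sparse counts. Of the 40 sets of JAZ locus and group 8 were singled out, 7 of them for a high library. The rate over all tested loci was not computed, so an excess was not shown. Swarna drought 4 stood above its group for LOC_Os03g08330 (3.61 CPM) and LOC_Os03g08320 (9.08 CPM). It was also singled out for LOC_Os03g08310 (0.103 CPM), where it had 2 counts and the other libraries of the group 0, so that any count would have done so, and 2 counts lie under the floor of 3. Swarna control 4 did so for LOC_Os03g08330 (26.8 CPM) and LOC_Os10g25290 (8.91 CPM). DTY-IL control 3 was high for LOC_Os03g08310 (0.741 CPM) and DTY-IL control 1 for LOC_Os04g55920 (64.4 CPM). DTY-IL drought 3 was low for LOC_Os08g33160 (14.1 CPM).

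Among the named loci of the jasmonate lists, LOC_Os12g37260 had a high library in 3 groups, with 81.0 CPM in DTY-IL control 4, 7.59 CPM in Swarna drought 4 and 4.66 CPM in Swarna control 1. Swarna control 4 was high for LOC_Os03g53020 (34.0 CPM). For LOC_Os11g25920 the high library was DTY-IL drought 3 (4.63 CPM), and for LOC_Os08g39850 it was DTY-IL drought 2 (7.78 CPM). Among loci chosen after their values were seen, LOC_Os10g25230 was high in DTY-IL drought 3 (3.90 CPM) and in Swarna control 4 (4.89 CPM), and DTY-IL control 3 was low at 0 CPM, the other libraries of that group having 1 count each. LOC_Os03g55800 was high in Swarna control 4 (19.2 CPM) and low in DTY-IL control 4 (3.13 CPM).

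The response to drought differed between DTY-IL and Swarna, by the test of the difference itself, for LOC_Os09g23660 (0.80 on the log2 scale, DTY-IL minus Swarna, edgeR adjusted p = 0.0184), for LOC_Os03g53020 of the perception list (2.00, edgeR adjusted p = 0.048) and for LOC_Os10g25230 of the further JAZ loci (7.36, edgeR adjusted p = 0.0489). Without Swarna control 4 the value of LOC_Os03g53020 was 1.16 (edgeR adjusted p = 0.0634), and it was called in 10 of 26 alternatives. LOC_Os10g25230 was called in 7 of 24, and its value was 3.35 without Swarna control 4 (edgeR adjusted p = 0.463) and 5.13 without DTY-IL drought 3 (edgeR adjusted p = 0.153).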

How the results depend on the processing

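Of the 41 comparisons of a JAZ locus and alternative that turned direction, none had been called, and of the calls those of LOC_Os09g23660 and LOC_Os07g42370 under drought stood throughout. With limma-voom 3 JAZ loci were called in Swarna instead of 5. Between the genotypes under drought 1 was called instead of 0 without Swarna drought 4, without the 3 libraries high in sparse loci, and by adjusted p alone (LOC_Os07g42370). Under control conditions 1 was called with DESeq2 and 1 by adjusted p alone, and for the difference of responses 1 by adjusted p alone. Leaving out single libraries gave 3 to 5 calls in DTY-IL, 4 to 5 in Swarna and 0 to 1 between genotypes under drought. The shares of all tested loci called in these alternatives are not given here.

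The replicate block changed few calls. Samples sharing a number in the title correlated best with their own number in 10 of 24 pairs (r -0.08 to 0.15). By the number in the description this held in 6 of 17 pairs (r -0.14 to 0.15). Neither number was used to pair the samples in the main fit. By the paper's account the pots stood in a randomized complete block design. The labels do not say whether either number is a block, so these correlations do not decide whether the samples are paired. With the replicate block by title number 5 loci were called in DTY-IL, LOC_Os10g25290 being added (2.19, edgeR adjusted p = 0.0161), and 5 in Swarna. With the description number 3 were called in DTY-IL, LOC_Os03g28940 being lost (0.99), and 4 in Swarna, LOC_Os03g08320 being lost (1.02, edgeR adjusted p = 0.110). The block also turned the direction of some values that were not called: LOC_Os09g26780 was at 0.0174 by title number in DTY-IL and, between genotypes under drought, at 0.12 by title and 0.0667 by description number, and by title number LOC_Os10g25290 was at 0.23 in Swarna and 0.24 between genotypes under drought.

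With library size alone the log2 fold changes that turned direction were 0.21 for LOC_Os08g33160 in Swarna, 0.29, 0.28 and -0.0137 for LOC_Os04g55920 in DTY-IL, in Swarna and between genotypes under drought, 0.27 for LOC_Os09g26780 in DTY-IL, 0.65 for LOC_Os10g25290 in Swarna and -0.15 for the difference of responses of LOC_Os03g08320. With limma-voom they were 0.39 for LOC_Os09g26780 and 0.21 for LOC_Os10g25290 between genotypes under drought, 0.45 for LOC_Os10g25290 in Swarna, and -0.0015 for LOC_Os03g08330 in DTY-IL. Without the 3 libraries they were 0.0402 for the difference of responses of LOC_Os08g33160, -0.10 for LOC_Os09g26780 and 0.83 for LOC_Os10g25290 in Swarna, -0.62 for LOC_Os03g08330 in DTY-IL, and 0.64, 0.69 and 0.49 for LOC_Os09g26780, LOC_Os03g08320 and LOC_Os10g25290 between genotypes under drought.

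Leaving out each library in turn gave ranges that cross 0: for LOC_Os09g26780 -0.36 to 0.14 in DTY-IL, -0.020 to 1.37 in Swarna and -0.49 to 0.83 between genotypes under drought, for LOC_Os10g25290 -0.996 to 1.73 in Swarna and -0.53 to 0.71 between genotypes under drought, for LOC_Os03g08330 -0.62 to 0.96 in DTY-IL and -0.47 to 1.83 between genotypes under drought, for LOC_Os03g08310 -1.30 to 1.25 in DTY-IL, for LOC_Os04g55920 -0.0586 to 0.22 and for LOC_Os03g08320 -1.38 to 0.80 between genotypes under drought, and for the difference of responses of LOC_Os03g08320 -0.60 to 1.56. The cause of these changes was not tested. Among the loci with these ranges LOC_Os03g08310 had the fewest counts, 48 in all libraries together. DTY-IL control 3 held 13 of the 15 counts of its group. Whether depth or the spread between libraries set the range of LOC_Os03g08310 was not tested.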

Other observations

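Other loci of the jasmonate lists, chosen after their values were seen, are given here and are not a full account of the lists. LOC_Os05g50890 of the synthesis and conjugation list had 29.1, 35.6, 33.2 and 26.0 CPM under drought and 81.7, 80.1, 87.9 and 71.2 CPM in controls of DTY-IL, and 25.7, 27.9, 28.2 and 26.0 CPM under drought and 61.5, 54.2, 63.6 and 60.2 CPM in controls of Swarna. It fell in both genotypes (log2 fold change -1.37 ± 0.12 in DTY-IL, edgeR adjusted p = 5.6e-08, and -1.15 ± 0.12 in Swarna, edgeR adjusted p = 2.4e-07), and with library size alone the changes were -0.97 in DTY-IL and -0.50 in Swarna. LOC_Os03g55800 of the same list fell in Swarna, with 1.15, 1.91, 1.44 and 2.06 CPM under drought and 4.79, 3.96, 2.71 and 19.2 CPM in controls (log2 fold change -2.22 ± 0.47, edgeR adjusted p = 0.00081). Control 4 stood far above the other controls, and without it the log2 fold change was -1.22, with the locus still called. With library size alone it was -1.53. In DTY-IL the log2 fold change of LOC_Os03g55800 was -0.60 ± 0.46 (edgeR adjusted p = 0.32). Its difference of responses was not called (1.61 ± 0.66, edgeR adjusted p = 0.16). LOC_Os03g32314 passed the adjusted p and not the fold-change threshold in both genotypes (-0.50 in DTY-IL and -0.98 in Swarna). So did LOC_Os08g35740 (-0.61 in DTY-IL and -0.69 in Swarna).

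On the perception list, LOC_Os05g37690 had a positive log2 fold change in both genotypes that passed the adjusted p and not the fold-change threshold (0.98 ± 0.15 in DTY-IL, edgeR adjusted p = 3.95e-05, and 0.76 ± 0.15 in Swarna, edgeR adjusted p = 0.00032), without overlap of the libraries in either. LOC_Os10g42430 fell in Swarna (log2 fold change -1.04 ± 0.17, edgeR adjusted p = 5.0e-05), called in 23 of 27 alternatives. Without Swarna control 4 the value was -0.90 and without Swarna drought 1 it was -0.98, both short of the fold-change threshold, and with library size alone it was -0.38 (edgeR adjusted p = 0.065). In DTY-IL the log2 fold change of LOC_Os10g42430 was -0.35 ± 0.17 (edgeR adjusted p = 0.099). Its difference of responses was not called (0.69 ± 0.23, edgeR adjusted p = 0.089). LOC_Os08g06480 passed the adjusted p alone in Swarna (0.54 ± 0.17, edgeR adjusted p = 0.0148), and was at -0.03 in DTY-IL.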
